A study of Homo sapiens with 64 samples.

Results

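A perfect hairpin stem of at least 10 Watson-Crick pairs was present in 277 of 3750 candidate sequences (7.39%) of a reporter library built from fragments of human 3′UTRs. Members were found by sequence alone: a stretch of 10 or more bases had to be followed, 3 to 100 bases after its end, by its exact reverse complement. The rule uses no readout. All 277 windows were 186 bases long and came from 261 transcripts. They held 267 stems when identical arms within a transcript were counted once. For 20 members, another, partly overlapping window of the same transcript held a stem with identical arms. A stem cut short by the end of a window was counted as a separate stem. Each candidate was accompanied by 1 scrambled control with the same bases in another order.

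The library was placed behind the eGFP open reading frame of an eGFP and mCherry reporter and delivered by lentivirus to HEK293 cells, a human embryonic kidney line that is easily transduced. Infected cells were selected with puromycin and sorted by the ratio of eGFP to mCherry into 8 bins, from the lowest ratio in bin 1 to the highest in bin 8. The sort was done in 2 replicates, called the first and the second sort here. Each bin of each sort gave 1 library of genomic DNA (gDNA) and 1 of RNA, 32 libraries in total. A second library, with sets of 4 designed mutants for some of the candidates, was sorted in the same way. The study calls the sorts of the mutant library biological replicates, and whether sorts came from separate cultures was not given in the sources used here, so p-values measure the spread between sorted libraries.

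A hairpin forms when an RNA strand folds back on itself and its arms pair around an unpaired loop. Long perfect stems are uncommon in mRNA, since bulges and mismatches usually interrupt them. They are known as substrates of proteins that bind double-stranded RNA, among them adenosine deaminases, Staufen and, for the precursors of microRNAs, Drosha and Dicer. Strong stems are also known to slow polymerases and reverse transcriptases, so a stem can act on a reporter and on its own measurement.

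The sequences below show what the rule selects. The first 3 are whole compact hairpins, with the paired arms in capitals and the loop in lower case, chosen because their measured values are described further on.
12 pairs around 4 bases: ATAGCTGCTTTTgatgAAAAGCAGCTAT
12 pairs around 4 bases: CATATATATACAcacgTGTATATATATG
10 pairs around 3 bases: CTGGCCTTTGaggCAAAGGCCAG
The next lines give the 5′ arm alone of 5 of the longest stems, all in capitals because every base is paired. The 3′ arm is its reverse complement, and the first of them is printed without its last 4 bases.
34 pairs, loop of 15 bases: ATTAATATGCAGTCTAAATACTGACTTTTC
21 pairs, loop of 10 bases: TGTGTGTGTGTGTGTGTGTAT
20 pairs, loop of 79 bases: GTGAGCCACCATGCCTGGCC
18 pairs, loop of 19 bases: AAAAGTAATTGTGGTTTT
18 pairs, loop of 46 bases: ATTACAGGCGTGAGCCAC

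Several of these arms belong to repeats. ATTACAGGCGTGAGCCAC is a stretch of the Alu consensus, a primate interspersed repeat that is frequent in 3′UTRs and pairs with itself where copies lie in opposite directions. This arm or its reverse complement occurred in candidates of 17 other transcripts. The arm AAAAGTAATTGTGGTTTT equals the first 18 bases of a mature microRNA, printed here as RNA with its seed (bases 2 to 8) in capitals, since the seed is the part that selects targets.
hsa-miR-548b-5p: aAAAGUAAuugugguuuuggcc
RefSeq places this microRNA at chr6:119069098-119069119 on the minus strand of GRCh38.p14. The miR-548 family is known to derive from MADE1, a short mobile element with complementary ends. Its host window passed the threshold in none of the tests described below.

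Scrambling the bases removed most long stems. A stem of 10 or more pairs occurred in 277 candidates and in 118 controls (3.15%). In 261 pairs only the candidate held 1, in 102 only the control, in 16 both, and in 3371 neither. The gap widened with length. A longest stem of exactly 10 pairs was seen in 158 candidates and 73 controls, of 12 or more in 60 and 14, and of 14 or more in 24 and 1. No control reached 15 pairs, which 16 candidates did. Just outside the rule, 432 candidates and 276 controls had a longest stem of 9 pairs.

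Loop sizes ran from 3 to 99 bases with a median of 33, where 3 to 100 were allowed. Of the members, 55 had a loop of 3 to 10 bases, 127 of 11 to 50 and 95 of 51 to 100, against 17, 53 and 48 controls. The median GC content of the arm was 60.0%, and it ran from 0 to 100%. Arms of 1 or 2 kinds of base were found in 28 members.

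The predicted fold held the stem in most members. In the minimum-energy structure computed for each window, all pairs of the stem were present in 189 members, some in 28 and none in 60. A short loop did not guarantee the stem: of the 55 members with a loop of 3 to 10 bases, 42 had all pairs in the fold and 8 none. The folding energy had a median of -73.7 kcal/mol in members and -62.5 in their controls. A member folded more stably than its control in 85.2% of pairs, beside 69.5% over all 3750 pairs, and the median difference was -8.00 kcal/mol beside -3.40. For the 34-pair stem the window had -76.7 against -34.1 kcal/mol.

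Depth limits how finely these sequences could be compared. Totals ran from 10336115 to 13314332 counts for gDNA of the first sort, from 13465191 to 114489304 for gDNA of the second, and from 851673 to 3468882 for RNA. The highest total belonged to the gDNA library of bin 4 in the second sort. Counts were scaled by median-of-ratios factors within each molecule. The gDNA level of members had a median of 2517 scaled counts per library, beside 2841 over all candidates. A pair entered the tests when both sequences had a mean of 10 counts per gDNA library, which 275 of 277 members met. The other two were CCCGCCCCCC, at 0 in all 16 gDNA libraries, and ATATATATATATA, at 0 in 14 of them.

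Reporter level was read as a slope, by how much the log2 of a sequence's scaled gDNA count changed per bin, and the slope of the control was subtracted. Negative slope differences belong to candidates whose cells lay further toward low eGFP than those of the control. By edgeR's quasi-likelihood test over 16 gDNA libraries, adjusted over all 3745 pairs tested, 5 members were lower than their control and 6 higher. Over all pairs 1.63% were lower and 1.34% higher, against 1.82% and 2.18% of members. These shares were near the background. The median slope difference was 0.01 log2 per bin in members and 0.00 over all pairs. Replicates limit this count: without the first sort no member and no other pair was called, and without the second sort 8 members were lower and 5 higher. Without the gDNA library of bin 4 in the second sort, 16 members were lower and 17 higher, while the calls over all pairs also grew to 217 and 209. DESeq2 on the same counts called 8 and 12, and total count scaling 7 and 10.

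The largest called decrease belonged to window ENST00000252939_part_8, which carries GGGGCTGGGGT with a loop of 88 bases. Its gDNA mean bin (each bin number weighted by the scaled counts found there) was 1.76 and 2.17 in the 2 sorts, and that of its control was 4.55 and 4.50. The slope difference was -1.16 ± 0.27 (SE; 16 libraries per sequence, edgeR adjusted p = 0.011). This window was rare: it averaged 63.2 scaled gDNA counts beside 3133 of its control and was at 0 in 5 of 16 libraries. Of its gDNA counts, 64.6% lay in bin 1 in the first sort but 1.53% in the other. Its RNA slope difference was -0.31 ± 0.13, short of the threshold.

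Window ENST00000407558_part_2, with GCATGCGCAG and a loop of 80 bases, was well covered. Candidate mean bins were 3.25 and 3.58, and control mean bins 5.67 and 5.09, so the sorts did not overlap. Scaled gDNA counts were 412 at the lowest, 2892 at the median and 5714 at the highest, against 867, 3535 and 11131 in the control. It was lower in the gDNA slope by -0.59 ± 0.12 (edgeR adjusted p = 0.00397), in the RNA slope by -0.31 ± 0.08 (adjusted p = 0.00725) and in RNA per gDNA, as defined below, by -1.21 ± 0.33 on the log2 scale (adjusted p = 0.00621). It was 1 of 2 members past the threshold in all 3 tests.

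The remaining decreases were smaller. CCATTCCCCAGGT, 13 pairs with a loop of 46 bases, had mean bins of 3.65 and 3.72 against 4.67 and 5.06 in its control. CACCCAGCTC had 4.02 and 3.43 against 5.19 and 5.07. AAAGGAAATCTTTGG, 15 pairs around a loop of 3 bases, had 4.14 and 3.45 against 4.67 and 5.24, and 14 of its 15 pairs were in the predicted fold. Their slope differences were -0.39, -0.38 and -0.32, each with an SE of 0.09 to 0.10 (edgeR adjusted p = 0.0238, 0.011 and 0.0297). In each of them the candidate lay below its control in both sorts.

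Among the increases, window ENST00000379370_part_11 had the largest difference and was again rare. It carries CCCAGCCCCA with a loop of 43 bases, averaged 64.4 scaled gDNA counts beside 1569 in its control, and was at 0 in 4 of 16 libraries. Its gDNA mean bins were 7.39 and 6.34 against 3.53 and 5.33, and the slope difference was 1.06 ± 0.31 (edgeR adjusted p = 0.0497). The call is at the threshold: the adjusted p was 0.0523 with TMM scaling, 0.0803 with a replicate block and 0.917 without the first sort. Bin 8 held 84.9% of its gDNA counts in the first sort but 0.38% in the other. In RNA its mean bins were 6.66 and 6.09 against 3.72 and 3.82, a slope difference of 0.90 ± 0.19 (adjusted p = 0.00118).

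Window ENST00000375105_part_2, with CCTCTGAGGG and a loop of 36 bases, had gDNA mean bins of 4.70 and 5.88 against 3.34 and 3.70 in its control. The slope difference was 0.53 ± 0.12 (edgeR adjusted p = 0.00741). Bin 8 held 22.5% and 45.5% of its gDNA counts in the 2 sorts, and 1.28% and 6.26% of those of the control. AGGGGGACTTT followed with mean bins of 4.78 and 4.64 against 3.14 and 3.59, a difference of 0.45 ± 0.08 (adjusted p = 0.00157). It also rose in the RNA slope, by 0.29 (adjusted p = 0.0267). CCCTGGAGGC, TTGGGAGCTG and CTTCTGGGGTC were higher by 0.40, 0.37 and 0.28 (adjusted p = 0.0483, 0.016 and 0.0359), and the first of them had an adjusted p of 0.0519 with TMM scaling.

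None of these 11 calls involved a whole stem of more than 15 pairs. Among the longest stems, that of 34 pairs had a gDNA slope difference of -0.14 ± 0.27, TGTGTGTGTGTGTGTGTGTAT of -0.09 ± 0.12 and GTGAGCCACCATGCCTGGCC of 0.02 ± 0.10, all short of the threshold. For the 34-pair stem the mean bins were 3.50 and 3.87 in the candidate and 3.79 and 3.63 in the control, which overlap. The most extreme uncalled differences were imprecise: CCGCGGCCCC had -1.31 ± 0.95, and TTTATATATATATA, which averaged 10.9 scaled gDNA counts, had 0.97 ± 0.78. Of the 188 tested members whose stem was wholly in the predicted fold, 0 were lower and 2 higher. Of the 59 with no stem pair in the fold, 4 were lower and 4 higher (6.78% each), beside 1.63% and 1.34% over all pairs. Whether these shares differ was not tested.

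The same slope was measured in RNA. It was lower in 13 members and higher in 23, with a background of 4.99% lower and 6.54% higher over all pairs, against 4.73% and 8.36% of members. All 36 calls pointed the same way in both sorts, which the calls themselves were made from. The count rests on both sorts together: without the first sort 2 members were lower and 1 higher, and without the second 1 and 1. The 5 members that passed in both the gDNA and the RNA slope had the same direction in each.

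CTCCGCTGGG had the lowest called RNA slope difference, -0.62 ± 0.14 (edgeR adjusted p = 0.00333), with RNA mean bins of 3.46 and 2.20 against 4.51 and 5.28. Its control also held a stem, of 13 pairs. TTTAAGTTTG was at -0.62 ± 0.20 too (adjusted p = 0.0384, and 0.059 with DESeq2). TCTGTTGCTAGGGAA, 15 pairs around 4 bases but absent from the predicted fold, followed at -0.55 ± 0.09 (adjusted p = 3.89e-05), with 3.13 and 2.61 against 4.69 and 5.28. The compact AU-rich hairpin CATATATATACA, printed above, was lower by -0.44 ± 0.11 (adjusted p = 0.00661), with RNA mean bins of 3.04 and 3.76 against 5.61 and 5.03. The overlapping next window of that transcript holds the same hairpin and had 0.10, short of the threshold.

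Increases in the RNA slope were led, after CCCAGCCCCA, by ATAAATATAT at 0.75 ± 0.25, GTCTCTTAGGACTG at 0.62 ± 0.14 and AGAAAAAGAA at 0.56 ± 0.13 (edgeR adjusted p = 0.0388, 0.00295 and 0.00427). GTCTCTTAGGACTG, 14 pairs with a loop of 36 bases, had RNA mean bins of 6.88 and 6.85 against 4.37 and 4.58. In gDNA its slope difference was -0.03 ± 0.18, and the difference between the readouts was not tested. It averaged 16.1 scaled RNA counts. The compact hairpin CTGGCCTTTG rose by 0.34 ± 0.10 (edgeR adjusted p = 0.0208), with RNA mean bins of 5.57 and 5.51 against 4.11 and 4.08.

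RNA per gDNA compares how much RNA a sequence gave for its gDNA, over all bins. It was tested as the log2 ratio of the candidate minus that of its control, over 32 libraries per sequence. A value of -1 means that the candidate had 2-fold less RNA for its gDNA than the control. In this readout 36 members were lower and 22 higher, with a background of 9.88% lower and 6.28% higher over all pairs, against 13.1% and 8.00% of members. All 58 calls pointed the same way in both sorts, but the fits pooled these sorts, so this is no separate support. Called decreases had a median of -1.62, and called increases from 0.84 to 3.64 with a median of 1.65. The median over members was -0.13, beside -0.08 over all pairs. Without the first sort 9 members were lower and 5 higher, and without the second 18 and 18. Lower transcription, faster decay and weaker reverse transcription or amplification of a stem cannot be told apart in these data.

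The lower side was heavier in the longest stems. Among the 59 tested members with 12 or more pairs, 13 were lower (22%) and 4 higher (6.78%), and the median difference was -0.41. Among the 24 with 14 or more pairs, 7 were lower (29.2%) and 1 higher, with a median of -0.51. Members with exactly 10 pairs had 11.5% lower, those with 11 pairs 8.47% lower, and candidates just outside the rule with 9 pairs 41 of 432 lower. Without the first sort 3 of the members with 12 or more pairs were lower and 0 higher, and without the second 7 and 2. These classes were formed with the results in view and were not tested against each other. Over the 275 members, stem length and the difference had a Pearson's r of -0.19 and a Spearman's rho of -0.06, a description of sequences that share libraries.

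ATAGCTGCTTTT, 12 pairs around a loop of 4 bases, was among the compact hairpins that were lower. Its log2 RNA per gDNA was -4.74 and -4.61 in the 2 sorts, and that of its control -3.58 and -3.23. This level holds the depth of both kinds of library, so only differences between sequences can be read. The fitted difference was -1.26 ± 0.35 (edgeR adjusted p = 0.00754). The hairpin was whole in the predicted fold, and the candidate lay below its control in each sort.

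The 34-pair stem was lower by -3.27 ± 0.80 (edgeR adjusted p = 0.00195), with log2 RNA per gDNA of -6.15 and -6.79 against -3.72 and -2.54. GTCTCTTAGGACTG was lower by -3.66 ± 0.58 (adjusted p = 1.17e-06), with -5.98 and -6.13 against -3.69 and -2.80. AAAAATAAAAAAA was lower by -3.49 ± 1.00 (adjusted p = 0.00892), but it averaged 119 scaled gDNA counts beside 988 in its control. None of these sorts overlapped with those of the control. The 14-pair stem that follows was cut short by the end of its window. The overlapping next window of that transcript holds the stem whole, with 17 pairs and the same loop. That window passed the threshold in neither slope nor in RNA per gDNA. TGGCCATCCTCCCA, 14 pairs with a loop of 24 bases, was lower by -1.84 ± 0.29 (adjusted p = 7.49e-07).

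Some repeat-derived stems were on this side as well. ATTACAGGCGTGAGCCAC, the 18-pair Alu stem, was lower by -1.96 ± 0.36 (edgeR adjusted p = 2.09e-05), with -5.11 and -4.81 against -2.95 and -3.29. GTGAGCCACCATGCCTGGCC had 0.045 ± 0.31, short of the threshold. CTTTGGGAGGCTGAG, 15 pairs with an arm found in 6 other transcripts, was lower by -2.39 ± 0.63 (adjusted p = 0.00415). Of the 7 members with 12 or more pairs whose arm occurred in 5 or more other transcripts, 6 were tested, 3 were lower and 0 higher. The share lower was 22% in all tested members with 12 or more pairs and 9.88% over all pairs. With 6 members, a difference between these shares was not tested.

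Increases among the members with 12 or more pairs were found in AGCCCTGGGTGAGC at 1.47 ± 0.36, CACCTGGGGATCC at 1.30 ± 0.28, CTCTTCCTGCCT at 0.95 ± 0.26 and ATGTATGTGTAT at 1.63 ± 0.56 (edgeR adjusted p = 0.00203, 0.00039, 0.00588 and 0.0344). CACCTGGGGATCC had log2 RNA per gDNA of -3.26 and -3.01 against -4.40 and -4.38 in its control.

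Shorter stems held the largest increases. CCTCACCTGGC, 11 pairs with a loop of 32 bases, was higher by 3.19 ± 0.39 (edgeR adjusted p = 1.19e-09), with -3.25 and -3.40 against -5.84 and -7.00. Its control also held a stem of 11 pairs. TGCTGTGAGG was higher by 2.51 ± 0.25 (adjusted p = 9.86e-13). GTTTGGGGGC and TGCCAACGCC were higher by 3.64 ± 0.65 and 3.27 ± 0.66 (adjusted p = 1.29e-05 and 0.000132), but both were rare in gDNA. TGCCAACGCC averaged 27.9 scaled gDNA counts against 1766 of its control.

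Low gDNA level moved with the increases. Of 16 tested members with more than 8-fold less gDNA than their control, 9 were higher in RNA per gDNA and 1 lower. Over all pairs of this kind, 35 of 91 were higher and 6 lower. Among the 251 members within 4-fold of their control, 34 were lower and 12 higher, beside 333 and 186 of 3544 over all pairs within that limit. These shares were 13.5% lower and 4.78% higher in members, and 9.40% and 5.25% over all pairs. Of members with 12 or more pairs, 11 of 55 within the limit were lower and 4 higher. The part of gDNA level in the single increases was not tested.

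Base composition also moved with the readout. Over all pairs with a window GC content under 45%, 88 of 937 were lower and 18 higher with a median of -0.22, and among the 74 tested members of this kind 12 were lower and 1 higher with a median of -0.61. At a GC content of 45% to under 55%, 10 of 51 members were lower and 3 higher with a median of -0.15, beside 82 and 39 of 739 and -0.08 over all pairs. At 55% or more, 14 of 150 members were lower and 18 higher with a median of 0.08, beside 200 and 178 of 2069 and -0.04 over all pairs. Members with 12 or more pairs had a median window GC content of 48.4%, beside 57.0% over all candidates. Within that class, 6 of 25 windows under 45% GC and 7 of 34 at or above it were lower, with medians of -0.41 in each.

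Loop size and folding were set beside the same readout. RNA per gDNA was lower in 7 and higher in 2 of 55 members with loops of 3 to 10 bases, with a median of -0.38. With loops of 11 to 50 bases 19 of 126 were lower and 9 higher, with a median of -0.19, and with loops of 51 to 100 bases 10 of 94 were lower and 11 higher, with a median of 0.09. In this order the shares were 12.7%, 15.1% and 10.6% lower, beside 13.1% of all members and 9.88% over all pairs. The shares higher were 3.64%, 7.14% and 11.7%, beside 8.00% and 6.28%. Pearson's r between loop size and the difference was 0.19 over 275 members. Short loops also lay in windows of lower GC content, with a median of 45.2% against 60.2% for the longest loops. Where all pairs of the stem were in the predicted fold, 20 of 188 members were lower (10.6%) and 17 higher (9.04%). Where none was, 10 of 59 were lower (16.9%) and 4 higher (6.78%). Differences between these classes were not tested.

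Windows that share a stem could give a partial repeat, although they overlap in sequence and have separate scrambled controls. There were 10 such pairs of windows with identical arms, and stems cut by a window end were not paired. RNA per gDNA differed from the control in the same direction in 8 pairs, and the gDNA slope in 5. Of the 20 windows, 18 lay below their control in RNA per gDNA, beside 54.5% of members. With nearly all windows on that side, most pairs share a direction however the windows are paired. The count of 8 therefore does not show that paired windows repeat each other. CTTATAAATTATA, 13 pairs with a loop of 7 bases, was lower by -3.05 ± 0.83 and -3.61 ± 1.12 in its 2 windows (edgeR adjusted p = 0.00596 and 0.0174), although the stem was in the predicted fold of only the first of them. The second window averaged 1.74 scaled RNA counts, and its log2 RNA per gDNA of -9.51 and -6.87 lay below -5.02 and -6.41 in the control, though not by much in the second sort. TGAGGTCAGG was lower by -1.52 ± 0.28 and -1.02 ± 0.26 (adjusted p = 2.5e-05 and 0.00332). CCCCTCCCCC had -0.67 ± 0.33, short of the threshold, in its first window and -4.10 ± 0.41 (adjusted p = 7.79e-13) in the next.

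Stems in the controls offer a mirror of the comparison. In the 102 pairs where only the control held a stem, 12 were lower and 6 higher in RNA per gDNA, with a median of -0.05, and 2 were lower and 0 higher in the gDNA slope. For RNA per gDNA these were 11.8% lower and 5.88% higher, near the 9.88% and 6.28% over all pairs. In the 16 pairs where both held a stem, 3 were lower and 3 higher in RNA per gDNA. Among the 14 controls with 12 or more pairs, the candidate was lower in 1 and higher in 2. Pairs in which neither sequence had a stem were lower in 322 and higher in 207 of 3368.

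Mutants could have tested the stems directly, but few did. The mutants were designed around 2 alternative structures of each candidate: A and B favour the first structure and C and D the second. For 88 members 95 sets with 380 mutants were measured, and a mutant differed from its candidate at a median of 6 bases. All pairs of the long stem were kept in 358 mutants, and in 84 sets by all 4. In 8 sets at least 1 mutant had lost 3 or more pairs while another kept every pair, and 7 of these were covered. The designed changes thus mostly lay outside the long stem.

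In these 7 sets the slope over the bins of mutants with a broken stem was compared with that of mutants with the whole stem, by limma on log2 of the normalized gDNA value plus 1. None passed the threshold after adjustment over all 1281 sets, and 2 had an unadjusted p under 0.05. As background, the same mutants were contrasted in all 1281 sets, whether or not a long stem was broken in them. A and C against B and D were called in 6.32%, and B and C against A in 5.07%. D against A and B was called in 4.06%, and B and C against A and D in 3.98%. For CTTTTTGGAA the difference was 0.10 ± 0.04 log2 per bin (limma adjusted p = 0.153), and mutant A, which kept the stem, had mean bins of 3.91 and 4.16. Mutants B and C, with 7 and 6 of 10 pairs lost, had 4.21 and 4.21 and 4.51 and 4.37. Mutant D lost 2 pairs and did not enter the contrast. For GCCCCTCTGC the difference was -0.08 ± 0.03 (adjusted p = 0.172): A and C, which lost 4 pairs each, had 4.52 and 4.42 and 4.52 and 4.41, whereas B and D, with the whole stem, had 4.85 and 4.84 and 4.78 and 4.40, so 1 sort of D overlapped. CCTCTGAGGG, called in the functional screen, had -0.04 ± 0.04 (adjusted p = 0.599). The sizes lie below those of the called gDNA slope differences between candidates and scrambled controls, and within the range of the uncalled ones.

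Mutants A and B were also compared with C and D, which asks about the designed structures and not about the long stem. Here 7 of 94 member sets passed (7.45%), beside 6.25% of all 1281 sets. Without the first sort 1 member set passed, and without the second 1. In all 7 every mutant kept the whole stem. The largest differences were 0.15 ± 0.04 for AATTAGCTGGGCG (limma adjusted p = 0.00284), a stem of 13 pairs with a loop of 10 bases, and 0.15 ± 0.03 for CAGCTGGCTGG (adjusted p = 0.00172). In the opposite direction, ATGTGGTAGAA had -0.14 ± 0.03 (adjusted p = 0.00118). Its mutants A and B had mean bins of 3.87 and 4.51 and of 4.29 and 4.32, and C and D of 4.77 and 4.75 and of 4.68 and 4.89.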

How the data were processed

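The functional screen was deposited as raw counts per library sequence, and the authors' signal values of the mutagenesis screen had been divided by a median-of-ratios factor per library. Per the labels and methods, adapters were trimmed with cutadapt, reads were matched to the library with bwa mem (BWA) and counted with featureCounts, and SAMtools was used. UMIs of RNA reads were moved to the read names; tool versions, and whether reads were merged by UMI before counting, were not given in the sources used here. The authors' columns of scores and switch marks were not used.

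Stems were searched with Python 3.11.15. Folds were predicted at 37 °C with ViennaRNA 2.7.2. Slopes and RNA per gDNA were fitted on all pairs with edgeR 4.0.16 (glmQLFit, glmQLFTest, robust estimation) in R 4.3.3, with sequence type, bin and their product as terms (for RNA per gDNA also molecule and its products) and no replicate block. Each SE is the size of the estimate divided by the square root of its F statistic. Mutants were tested with limma 3.58.1 on log2(value + 1), 4 mutants per set. The p-values were adjusted by Benjamini-Hochberg with a threshold of 0.05. The edgeR and limma tests were tested on simulated data. Alternatives were TMM, total count, no minimum or 50 counts, each sort left out, a replicate block, DESeq2 1.42.0, other stem rules and, for mutants, another pseudocount of 0.5.

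The members and lists were chosen with earlier results of these data known. Named members are those past the threshold in any test, the 5 lowest and 5 highest gDNA slope differences, the 5 longest stems and members with a called mutant contrast. The comparison of A and B with C and D, and the limit of 4-fold in gDNA level, were added after the data were seen. Since identifiers are not paired with gene names, 2 identifiers per direction are printed and other members are named by their 5′ arm. No genome coordinates of the windows are given. Some of the named members are not reported here.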

Additional observations from a re-analysis of the deposited data

How the results depend on the processing

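The median gDNA slope difference of members lay near 0 and had no stable sign, at 0.0099 with both sorts, 0.021 without the first and -0.0086 without the second. Leaving out a sort in turn gave 0 to 8 members lower and 0 to 5 higher in the gDNA slope, 1 to 2 lower and 1 higher in the RNA slope, and 9 to 18 lower and 5 to 18 higher in RNA per gDNA. For stems of 12 or more pairs it gave 3 to 7 lower and 0 to 2 higher in RNA per gDNA, with medians of -0.38 to -0.37, medians of -0.030 to -0.0088 in the gDNA slope and 0.0088 to 0.043 in the RNA slope. Over all members the medians were 0.036 to 0.042 for the RNA slope and -0.14 to -0.065 for RNA per gDNA. In the gDNA slope DESeq2 called 8 lower and 12 higher, total count scaling 10 higher, and the fit without the gDNA library of bin 4 in the second sort 16 lower and 17 higher. With a replicate block, RNA per gDNA was lower in 35 and higher in 22 members, and lower in 14 and higher in 4 of those with 12 or more pairs, whose median was -0.39. The study's methods name no block, so the tests have none. In gDNA, libraries of the same sort deviated from their bin means with correlations of -0.196 to 0.287 and a median of 0.023. RNA libraries were not compared in this way. The median RNA slope was 0.037 with DESeq2, 0.039 with a minimum of 50 counts and 0.035 with the replicate block, beside 0.028. Within 4-fold of the control's gDNA level, 12 members were higher in RNA per gDNA. Of the results for single named members, 696 kept their side of the threshold, 169 lost it and 6 gained it. Of the losses, 90 came from leaving out the first sort, 67 the second, 7 from the replicate block, 3 from TMM scaling and 2 from DESeq2, which gave no adjusted p for 1 more.

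Stem rules moved the number of candidates and controls: 709 and 394 with 9 or more pairs, 119 and 45 with 11, 60 and 14 with 12, 184 and 70 with loops of at most 50 bases, and 2386 and 2043 when G-U pairs counted. With 12 or more pairs, 0% were higher in the gDNA slope, 8.47% lower and 3.39% higher in the RNA slope, and 22% lower in RNA per gDNA. No alternative gave a called mutant contrast by stem. Low RNA counts limit single ratios, since RNA libraries held fewer counts than gDNA libraries.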
